A study of Mus musculus with 24 samples.

Results

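The genes described here are 35 endothelial and angiogenic genes, taken by symbol from the 24537 genes of a raw count table of mouse muscle. They fall into 6 ligands (Vegfa, Vegfb, Vegfc, Angpt1, Angpt2 and Apln), 9 receptors and receptor partners (Kdr, Flt1, Tek, Tie1, Eng, Robo4, Ptprb, Aplnr and Ramp2), 5 transcription factors (Erg, Fli1, Sox7, Sox17 and Sox18), 8 junction and surface proteins (Pecam1, Cdh5, Cldn5, Esam, Emcn, Icam2, Ecscr and Plvap) and 7 other genes (Nos3, Egfl7, Gpihbp1, Mmrn2, Myct1, Rgcc and Vwf). All 35 passed the filter on low counts, and the lowest count of any of them in any library was 50.

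RNA was sequenced from whole extensor digitorum longus (EDL) muscles, which are mostly fast-twitch, and whole soleus (SOL) muscles, which are mostly slow-twitch, of 2-month-old mice. Acta1-Cre+/4Fhet mice (Cre+) carry 4F, a cassette of the reprogramming factors Oct4, Sox2, Klf4 and c-Myc (OSKM) that is switched on by doxycycline (Dox), and an rtTA activator behind a floxed stop that Cre removes in myofibers. Acta1-Cre-/4Fhet mice (Cre-) carry the same transgenes without Cre and served as controls. All mice drank Dox (1 mg/ml), some for 2.5 days, some for 5.5 days and the rest for 8.5 days, so no group was free of Dox, and each of the 12 groups of muscle, genotype and day has 2 libraries. Cre is driven by Acta1, a myofiber gene, so the cassette was not directed at endothelial cells, and the sex of each mouse is not given in the labels. Because whole muscle was sequenced, fewer endothelial cells and less RNA per endothelial cell cannot be told apart, and a ligand transcript cannot be assigned to myofibers or to other cells.

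The libraries held 36088781 to 54679082 counts. Pou5f1, which encodes Oct4, was at 17.5 to 76.2 FPKM (fragments per kilobase of exon, scaled to the total count of the library) in the 4 Cre+ EDL libraries of 2.5 and 8.5 days and at 5.02 to 12.2 FPKM in the 4 Cre+ SOL libraries, against 0.09 FPKM at most in Cre- libraries. After 5.5 days it was at 1.02 and 27.7 FPKM in Cre+ EDL and at 0.0785 and 0.387 FPKM in Cre+ SOL. The submitters set the 5.5-day samples aside as outliers, and they are treated apart here, although Cre+ EDL replicate 2 of 5.5 days had more Pou5f1 than Cre+ EDL replicate 1 of 2.5 days (17.5 FPKM). The fast myosin Myh4 was at 2695 to 7905 FPKM in EDL and 21.1 to 521 FPKM in SOL, and the slow myosin Myh7 at 4.82 to 88.6 and 1848 to 3700 FPKM.

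Skeletal muscle is a densely vascularized tissue in which capillaries run along the myofibers. Myofibers and other cells secrete VEGF, which endothelial cells sense through the receptors encoded by Kdr and Flt1 to grow, survive and sprout, while angiopoietins act through Tek, with Tie1 as its partner, to steady or loosen the vessel wall. Endothelial identity is held by ETS factors such as Erg and Fli1 and by the SOXF factors Sox7, Sox17 and Sox18, and slow oxidative muscle is known to have more capillaries per fiber than fast muscle.

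A gene was called when the quasi-likelihood test of edgeR gave a p under 0.05 after Benjamini-Hochberg adjustment over all genes tested and the log2 fold change was above 0.5 in size. Levels are given as FPKM, which scale by each library's total count, whereas log2 fold changes use edgeR's TMM scaling (trimmed mean of M-values). In EDL after 2.5 days of Dox, 18 of the 35 genes were lower in Cre+ than in Cre- muscles and 0 were higher. Of the 15372 genes tested, 24% were called in that comparison, 10.2% lower and 13.8% higher. The median log2 fold change of the 35 genes was -0.62, against -0.05 for all genes tested, and 34 of the 35 lay below 0.

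The VEGF ligands had the lowest log2 fold changes among the called genes. Vegfa (NM_001025250, mm10 chromosome 17, 46016993 to 46032377, minus strand), the main growth signal for capillaries, was at 75.6 and 75.9 FPKM in Cre- EDL and at 47.4 and 34.1 FPKM in Cre+ EDL after 2.5 days. The Cre+ and Cre- libraries did not overlap, and the Cre- pair was closer together than the Cre+ pair. Vegfa fell by 1.22 on the log2 scale (SE 0.17, edgeR quasi-likelihood adjusted p = 0.000281). Vegfb (NM_011697, mm10 chromosome 19, 6982472 to 6987651, minus strand), a ligand of Flt1 linked to endothelial fatty acid uptake, was at 74.5 and 66.2 FPKM in Cre- EDL and at 41.3 and 43.0 FPKM in Cre+ EDL. Both Cre+ libraries were again below both Cre- libraries, and Vegfb fell by 1.07 (SE 0.17, edgeR adjusted p = 0.000663).

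The promoters of Vegfa, Vegfb and Tie1 are shown because the first 2 genes were called in EDL on both days and Tie1 had the next largest fall among the called genes with a RefSeq window at the deposited start. Each sequence is the 250 bases before the start, 5' to 3' on the gene's strand (RefSeq, GRCm38.p6): chr17:46032378-46032627, minus strand, for Vegfa, chr19:6987652-6987901, minus strand, for Vegfb, and chr4:118489850-118490099, minus strand, for Tie1. Capitals mark the GC box GGGCGG, the KLF box CCACCC and the ETS motif AGGAAG on either strand, which do not overlap each other here. Shorter matches such as GGAA alone are not marked or counted.
Vegfa: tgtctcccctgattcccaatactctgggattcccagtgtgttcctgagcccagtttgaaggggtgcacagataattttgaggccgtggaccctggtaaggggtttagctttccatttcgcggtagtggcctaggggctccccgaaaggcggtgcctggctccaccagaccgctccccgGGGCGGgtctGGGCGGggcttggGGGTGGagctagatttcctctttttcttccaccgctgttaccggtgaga
Vegfb: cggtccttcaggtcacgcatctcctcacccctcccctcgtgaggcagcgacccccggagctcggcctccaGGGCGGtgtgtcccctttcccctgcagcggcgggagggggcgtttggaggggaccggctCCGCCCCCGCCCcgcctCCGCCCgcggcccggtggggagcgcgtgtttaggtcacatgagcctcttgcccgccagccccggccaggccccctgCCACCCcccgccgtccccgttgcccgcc
Tie1: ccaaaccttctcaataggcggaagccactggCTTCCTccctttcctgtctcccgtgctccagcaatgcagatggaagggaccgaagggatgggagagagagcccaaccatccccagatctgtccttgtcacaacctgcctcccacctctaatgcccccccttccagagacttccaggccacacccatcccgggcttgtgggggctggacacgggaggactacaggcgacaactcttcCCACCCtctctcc
The Vegfa window held 2 GC boxes and 1 KLF box, the Vegfb window 4 GC boxes and 1 KLF box, and the Tie1 window 1 ETS motif and 1 KLF box. Their GC contents were 59.2%, 76.4% and 60.4%, against a median of 52.4% over all windows. The letters ACGTG, 1 of the 2 forms of the hypoxia response core, were searched because Vegfa is a known hypoxia target. The other form, GCGTG, was not counted over the windows, but the Vegfb sequence above holds it. The count of ACGTG therefore cannot show whether a window lacks the hypoxia response core. ACGTG was in 0 of the 16 windows found for the 35 genes and in 16.6% of the 32851 windows of all genes. The ETS motif was in 8 of the 16 windows, or 50.0%, against 29.5% of all windows. The GC box was in 8 (50.0% against 32.7%), the KLF box in 9 (56.2% against 28.1%) and the estrogen-related receptor motif AAGGTCA in 1 (against 4.08%). The palindromic E-box CACGTG contains ACGTG, so its count of 0 (against 6.02%) follows from that of ACGTG and is not a separate result. These are matches of letters in 250 bases and not measured binding.

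The other 4 ligands were not called in EDL after 2.5 days. Angpt1, the stabilizing ligand of Tek, was at 1.49 and 2.31 FPKM in Cre- and 4.04 and 4.81 FPKM in Cre+ EDL. It was the only one of the 35 genes with a log2 fold change above 0 there, at 0.88 (SE 0.34, edgeR adjusted p = 0.0755), and it was called higher in 5 of the 9 settings tried. These were library size alone (log2 fold change 1.22, edgeR adjusted p = 0.0208), no filter on low counts (0.88, edgeR adjusted p = 0.0496), all 24 libraries (0.89, edgeR adjusted p = 0.0395), the block on the replicate number (0.92, edgeR adjusted p = 0.0368) and DESeq2 (0.90, adjusted p = 0.0302). It was called in none of the 4 fits that left out 1 library, where it ranged from 0.58 to 1.26. Angpt2, which opposes Angpt1, was at 0.740 and 0.914 FPKM in Cre- and 0.760 and 0.642 FPKM in Cre+ EDL, where the groups overlapped. Vegfc, the lymphatic growth factor, was at 1.31 and 1.01 against 1.07 and 0.783 FPKM, and these groups overlapped as well. Both overlaps are in FPKM, scaled by library total. With TMM scaling Angpt2 and Vegfc had log2 fold changes below 0. The median of the 6 ligands was -0.85, and 5 of the 6 had an unadjusted edgeR p under 0.05, as did 5998 of the 15372 genes tested. Apln, made by sprouting tip cells, was at 0.763 and 2.54 FPKM in Cre- and 0.997 and 0.746 FPKM in Cre+ EDL. The Cre- libraries of Apln were far apart, and its log2 fold change was -1.26 (SE 0.54, edgeR adjusted p = 0.104).

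**Figure D1:**
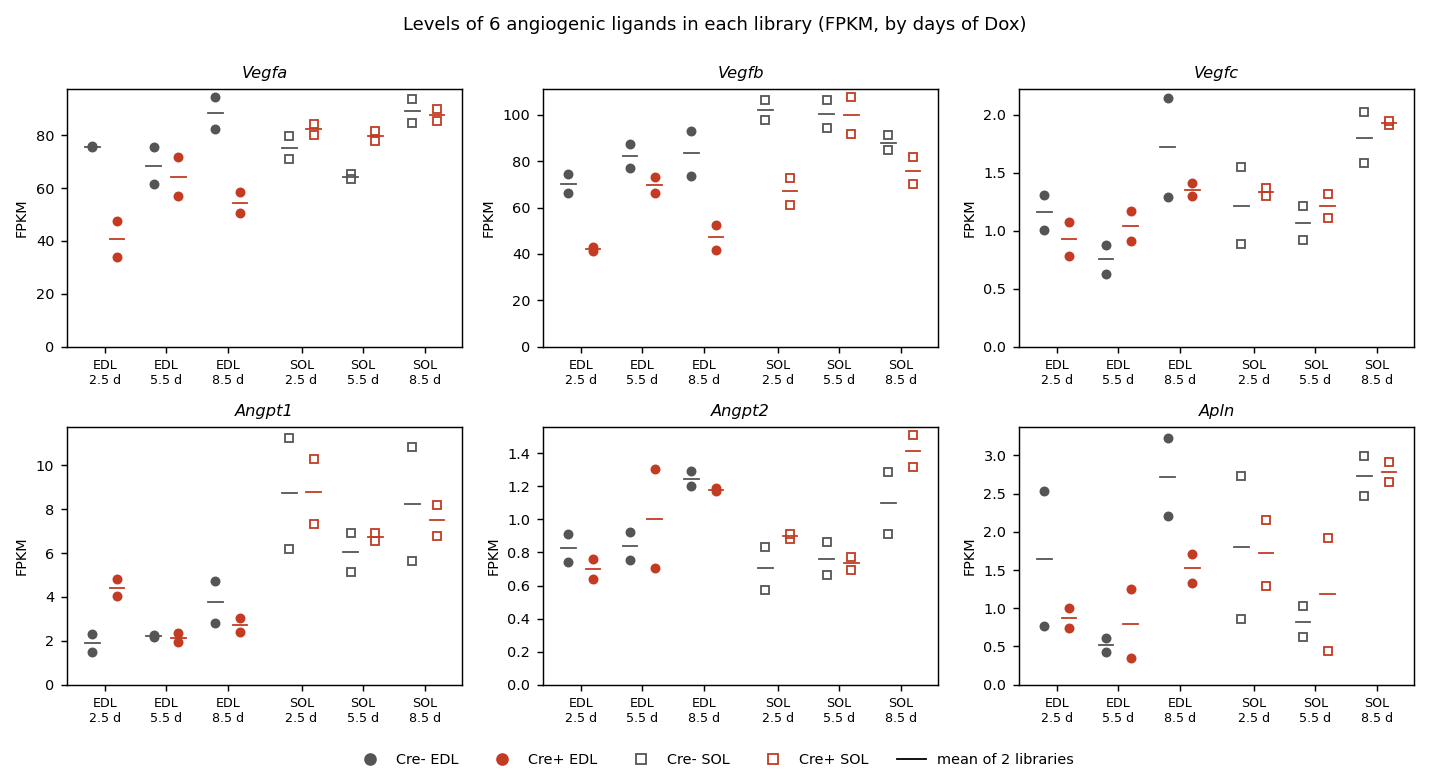
FPKM (y axis, linear, from 0) of the 6 ligands in each of the 24 libraries, by muscle and days of Dox (x axis), with EDL as circles, SOL as squares, Cre- in grey, Cre+ in red, and a line at the mean of 2 libraries. Vegfa and Vegfb in Cre+ EDL lie below Cre- EDL after 2.5 and 8.5 days, whereas Vegfa in Cre+ SOL lies slightly above Cre- SOL after 2.5 days and overlaps it after 8.5 days.

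Among the 9 receptors and partners, 5 were called lower in Cre+ EDL after 2.5 days. Tie1 (mm10 chromosome 4, 118471191 to 118489849, minus strand), the orphan partner of Tek, was at 14.5 and 16.6 FPKM in Cre- and 11.1 and 10.6 FPKM in Cre+ EDL. It fell by 0.85 on the log2 scale (SE 0.16, edgeR adjusted p = 0.00164). Robo4, an endothelial guidance receptor, Ptprb, the phosphatase that dampens Tek and Kdr signaling, Flt1 and Ramp2, a partner of the adrenomedullin receptor, had log2 fold changes of -0.82, -0.70, -0.61 and -0.53. The main VEGF receptor Kdr had a log2 fold change of -0.63 and was not called (edgeR adjusted p = 0.0711), nor were Eng, a TGF-beta co-receptor, at -0.48, Aplnr, the apelin receptor, at -0.36 or Tek at -0.29.

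Of the 5 transcription factors, 2 were called lower. Sox17, linked to arterial identity, was at 3.40 and 3.58 FPKM in Cre- and 2.40 and 2.19 FPKM in Cre+ EDL after 2.5 days, with no overlap. Sox17 fell by 0.93 (SE 0.19, edgeR adjusted p = 0.00298) and Erg by 0.51 (SE 0.15, edgeR adjusted p = 0.0223). Fli1, Sox18 and Sox7 had log2 fold changes of -0.78, -0.64 and -0.61 with edgeR adjusted p of 0.0721, 0.122 and 0.0594.

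The junction and surface group had 5 of 8 genes called lower: Esam, an adhesion molecule of endothelial tight junctions, at -0.77, the sialomucin Emcn at -0.69, Ecscr at -0.61, Cdh5, the VE-cadherin of adherens junctions, at -0.54, and Pecam1, the CD31 marker, at -0.52. Icam2, Cldn5 and Plvap were not called, at -0.62, -0.50 and -0.34. In the remaining group 4 of 7 were called lower. Gpihbp1 (mm10 chromosome 15, 75596658 to 75598213, plus strand), which carries lipoprotein lipase across capillary endothelium, was at 55.4 and 71.9 FPKM in Cre- and 40.2 and 41.0 FPKM in Cre+ EDL and fell by 0.98 (SE 0.18, edgeR adjusted p = 0.00152). Nos3, the endothelial nitric oxide synthase, whose gene overlaps Atg9b on the other strand, fell by 0.85 (SE 0.17, edgeR adjusted p = 0.00221), Egfl7, a secreted vessel matrix protein, by 0.73, and Mmrn2, an endothelial matrix glycoprotein, by 0.62. Myct1, Vwf and Rgcc were at -0.61, -0.50 and -0.32 and were not called.

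**Figure D2:**
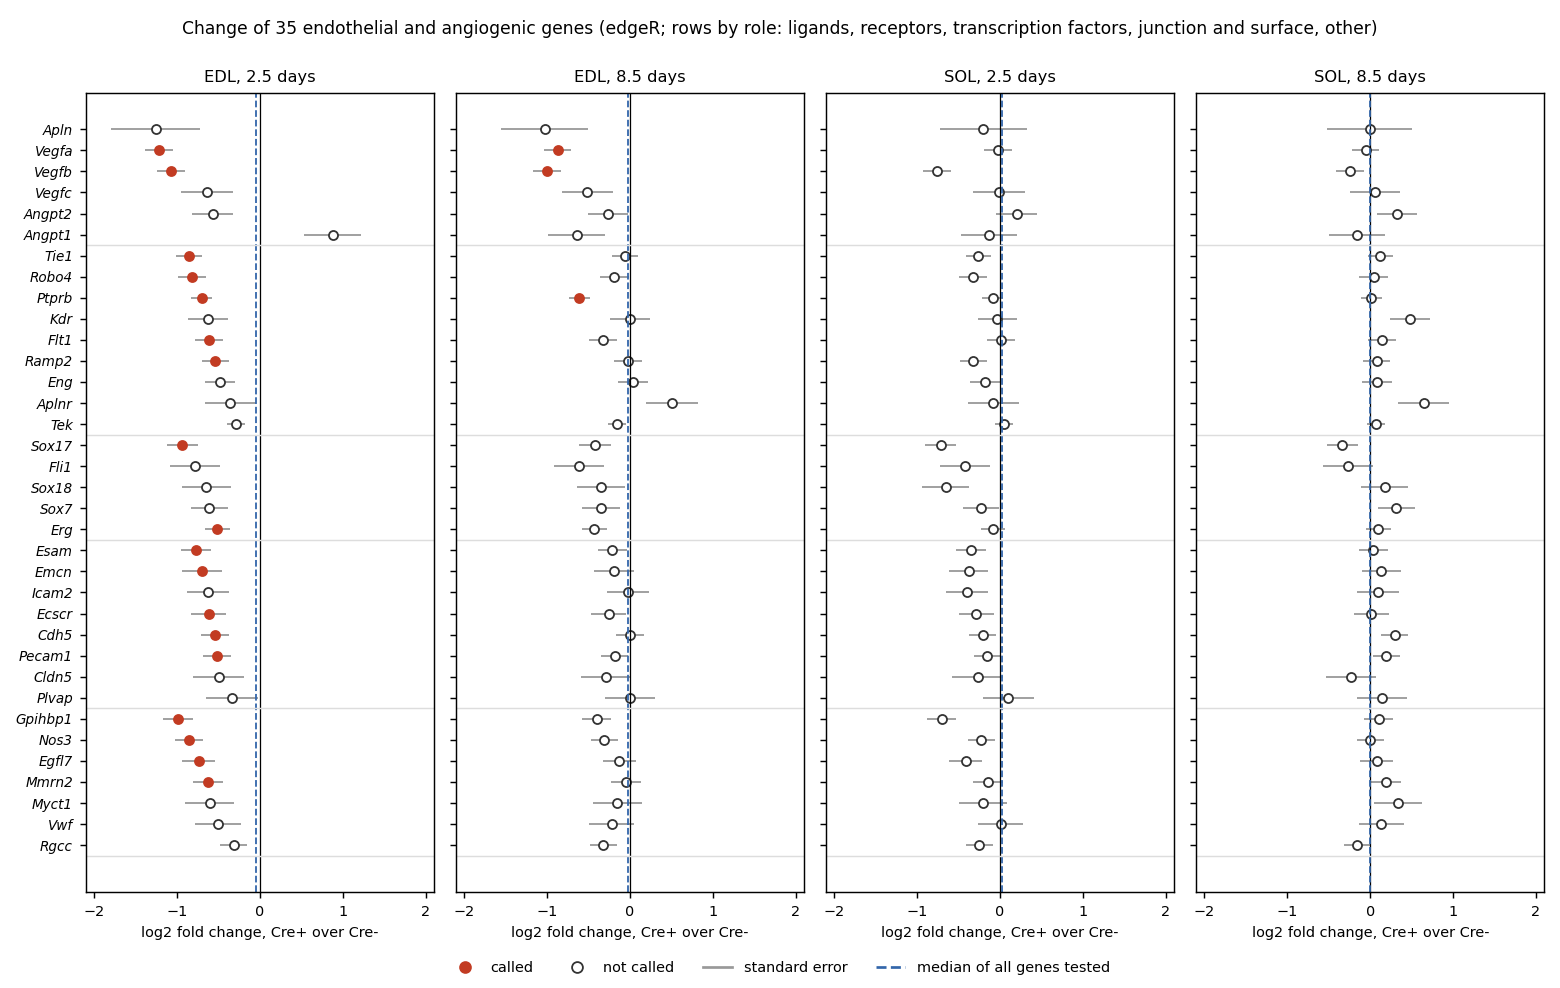
Log2 fold change of Cre+ over Cre- (x axis, TMM scaling, with standard error) for the 35 genes (y axis, grouped by role) in EDL and SOL after 2.5 and 8.5 days; filled points were called and the dashed line is the median of all genes tested. In EDL after 2.5 days 34 of 35 points lie left of 0 and 18 were called, and after 8.5 days 3 were called.

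The size of these differences depended on how libraries were scaled. The TMM factors were 0.880 to 0.910 in Cre- EDL and 1.09 to 1.16 in Cre+ EDL of 2.5 days, and scaling by library size alone moved the median of all genes tested from -0.05 to 0.28 and their calls from 2118 higher and 1566 lower to 4206 higher and 610 lower. The median of the 35 genes moved with it, from -0.62 to -0.29, and its distance to the median of all genes was -0.58 under TMM and -0.57 under library size alone. With library size alone 6 of the 35 genes were called lower (Vegfa, Vegfb, Gpihbp1, Sox17, Tie1 and Nos3), 1 (Angpt1) was called higher, 32 lay below 0, and Tek and Rgcc lay slightly above 0. Those 6 genes were also called under each of the 9 settings tried and without any 1 of the 4 libraries. The count was 8 without Cre+ replicate 2 and 8 without Cre- replicate 2, and Cre+ replicate 2 had the higher Pou5f1 of the Cre+ pair, 70.5 against 17.5 FPKM.

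**Figure D3:**
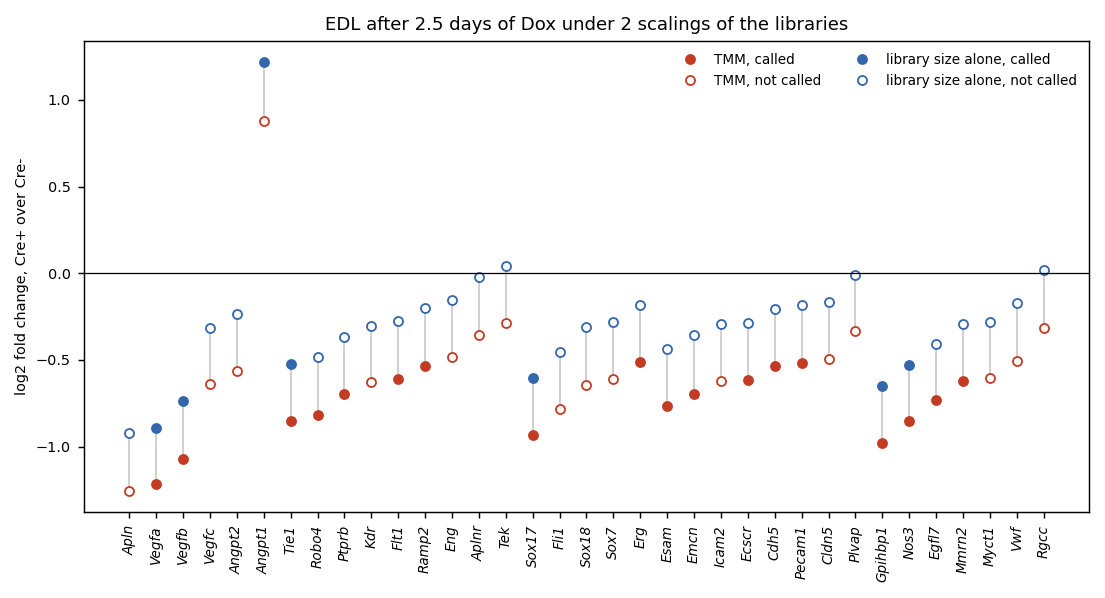
Log2 fold change of Cre+ over Cre- in EDL after 2.5 days (y axis) of the 35 genes (x axis, in order of role) with TMM scaling (red) and with library size alone (blue), filled where called. Library size alone shifts every gene upward by a like amount, and the 6 genes called lower under both are Vegfa, Vegfb, Tie1, Sox17, Gpihbp1 and Nos3.

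In EDL after 8.5 days, 3 of the 35 genes were lower in Cre+ muscles and 0 were higher, where 14.1% of all genes tested were called, 6.50% lower and 7.63% higher. Vegfa was at 94.6 and 82.4 FPKM in Cre- and 50.5 and 58.6 FPKM in Cre+ EDL. Vegfb was at 93.0 and 73.8 FPKM in Cre- and 41.9 and 52.4 FPKM in Cre+ EDL, so that for both ligands each Cre+ library was below each Cre- library. Vegfa fell by 0.87 on the log2 scale (SE 0.17, edgeR adjusted p = 0.00417) and Vegfb by 0.99 (SE 0.17, edgeR adjusted p = 0.0021). Ptprb was at 7.96 and 7.27 FPKM in Cre- and 6.15 and 5.17 FPKM in Cre+ EDL after 8.5 days, and at 7.81 and 8.34 against 6.22 and 6.32 FPKM after 2.5 days. It fell by 0.61 after 8.5 days (SE 0.13, edgeR adjusted p = 0.00639), with no overlap of the groups on either day.

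The call of Vegfb after 8.5 days held without any 1 of the 4 EDL libraries. The call of Vegfa was lost without Cre+ replicate 1 (edgeR adjusted p = 0.0681), and that of Ptprb without Cre+ replicate 2 (edgeR adjusted p = 0.0534), with library size alone (edgeR adjusted p = 0.0557) and in a fit of the 4 EDL libraries of 8.5 days (edgeR adjusted p = 0.0714).

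The other endothelial genes lay closer to 0 after 8.5 days. The median of the 35 genes was -0.26, against -0.02 for all genes tested, and -0.08 against 0.16 with library size alone. By role, the median of the ligands was -0.76, of the transcription factors -0.42, of the remaining group -0.22, of the junction and surface genes -0.19 and of the receptors -0.06. Pecam1 and Cdh5 were at -0.19 and 0.00. The change after 8.5 days differed from that after 2.5 days for 0 of the 35 genes and for 0.00% of all genes tested. There 9 of the 35 had an unadjusted p under 0.05, as did 1469 of the 15372 genes tested. DESeq2 called 0 of the 35 and 0.943% of all genes, so a smaller change after 8.5 days was not shown for any single gene of the 35. The median difference of the 35 genes was 0.34. That median was 0.20 with library size alone (all genes -0.15), 0.52 without Cre+ replicate 1 of 2.5 days and 0.56 without Cre- replicate 2 of 8.5 days.

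In SOL, 0 of the 35 genes were called between Cre+ and Cre- muscles after 2.5 days by edgeR, where 0.384% of all genes tested were called, 0.0390% lower and 0.345% higher. The unadjusted p was under 0.05 for 4 of them and for 2053 of the 15372 genes tested. DESeq2 called 2.4% of all genes, 181 higher and 188 lower. Of the 35 genes it called 3 lower: Vegfb (log2 fold change -0.79, DESeq2 adjusted p = 0.00209), Gpihbp1 (-0.73, DESeq2 adjusted p = 0.0111) and Sox17 (-0.74, DESeq2 adjusted p = 0.0148). Vegfb was at 107 and 98 FPKM in Cre- and 72.7 and 61.3 FPKM in Cre+ SOL, with no overlap, and its edgeR log2 fold change was -0.76 (SE 0.17, adjusted p = 0.0887). Vegfa was at 70.9 and 79.7 FPKM in Cre- and 84.3 and 80.1 FPKM in Cre+ SOL, where the Cre+ libraries were slightly above the Cre- libraries, and its log2 fold change was -0.03 (SE 0.17). The median of the 35 genes was -0.21, against 0.02 for all genes tested. It was -0.06 without Cre- replicate 2, -0.32 without Cre+ replicate 1 and -0.06 with library size alone, where the median of all genes was 0.18 and 22 of the 35 genes, in place of 30, lay below 0.

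After 8.5 days edgeR called 0 of the 35 genes in SOL, where 0.631% of all genes tested were called, 0.299% lower and 0.332% higher. An unadjusted p under 0.05 was found for 0 of the 35 and for 1015 of the 15372 genes tested. DESeq2 called 0 of the 35 and 1.1% of all genes. The median of the 35 was 0.08 against -0.01 for all genes. That median was -0.02 without Cre- replicate 2, 0.22 without Cre- replicate 1 and 0.05 without Cre+ replicate 1. Vegfa was at 84.7 and 93.9 FPKM in Cre- and 90.1 and 85.5 FPKM in Cre+ SOL, and Vegfb at 91.3 and 84.9 against 70.0 and 82.0 FPKM. The Vegfa groups overlapped, and the Vegfb groups were close without overlap. The other ligands in SOL of 2.5 and 8.5 days ranged from 0.576 to 1.51 FPKM for Angpt2, 0.864 to 2.99 for Apln, 0.884 to 2.02 for Vegfc and 5.64 to 11.3 for Angpt1.

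The difference between muscles was tested as the change in EDL minus the change in SOL. After 2.5 days it was called for 1 of the 35 genes, Vegfa, and for 4.25% of all genes tested, 0.891% lower and 3.36% higher. The Vegfa change was lower in EDL by 1.19 on the log2 scale (SE 0.24, edgeR adjusted p = 0.0163). EDL and SOL libraries of the same replicate number deviated together, and with the number as a block (each number as 1 mouse) 2 genes were called, Vegfa at -1.22 (edgeR adjusted p = 0.0123) and Apln at -1.0 (edgeR adjusted p = 0.0452). Vegfa was called under each of the settings tried with all libraries but in 3 of the 8 fits that left out 1 library. It was lost without Cre+ SOL replicate 1 or 2, Cre- EDL replicate 1 or 2, or Cre- SOL replicate 1, with its edgeR adjusted p at most 0.0761. A second gene was called without Cre+ EDL replicate 1 (Nos3) and without Cre- SOL replicate 2 (Ptprb). Vegfb, which was lower in Cre+ than in Cre- libraries of both muscles, had a difference of -0.30 (SE 0.24, edgeR adjusted p = 0.496). After 8.5 days edgeR called 0 of the 35 genes and 0.592% of all genes tested, 0.0585% lower and 0.533% higher. There 4 of the 35 had an unadjusted p under 0.05, as did 1729 of the 15372 genes tested. DESeq2 called Vegfa (-0.82, DESeq2 adjusted p = 0.0318) and Ptprb (-0.63, DESeq2 adjusted p = 0.0381), and 2.24% of all genes.

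After 5.5 days edgeR called 0 of the 35 genes in EDL (0.304% of all genes tested, 0.258% higher and 0.0452% lower) and 0 in SOL (0.00%). The unadjusted p was under 0.05 for 2 of the 35 in EDL and 4 in SOL, and for 1307 and 597 of the 15478 genes tested. DESeq2 called 1 (Aplnr) and 0 of the 35, and 1.11% and 0% of all genes. Vegfa was at 75.4 and 61.7 FPKM in Cre- and 71.8 and 56.9 FPKM in Cre+ EDL, and Vegfb at 87.5 and 77.0 against 73.1 and 66.3 FPKM. The Vegfa groups overlapped, and the Vegfb groups did not. In SOL, Vegfa was at 65.3 and 63.5 against 81.7 and 78.0 FPKM and Vegfb at 106 and 94.5 against 91.8 and 108 FPKM. Aplnr was at 1.16 and 1.32 FPKM in Cre- and 4.73 and 2.1 FPKM in Cre+ EDL (log2 fold change 1.32, SE 0.39, edgeR adjusted p = 0.235). Its 4 Cre- libraries of 5.5 days, at 1.16 to 2.15 FPKM, were the lowest of the 12 Cre- libraries. Of the Cre+ EDL pair, replicate 1 had the lower Pou5f1. Without it the log2 fold changes of Apln and Angpt2 in EDL of 5.5 days turned from 0.47 to -0.71 and from 0.11 to -0.39.

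The control muscles give the levels without OSKM. Over the 4 Cre- EDL libraries of 2.5 and 8.5 days the highest of the 35 genes were Vegfa at 82.1 ± 8.88 FPKM (SD, n = 4), Vegfb at 76.9 ± 11.4 and Gpihbp1 at 52.4 ± 14.7, and the ranges of Vegfa and Vegfb overlapped. In Cre- SOL the same 3 genes led, Vegfb at 95.2 ± 9.26, Vegfa at 82.3 ± 9.58 and Gpihbp1 at 62.2 ± 24 FPKM (SD, n = 4). Egfl7 followed in both muscles, at 39.2 ± 5.53 and 52.6 ± 8.12 FPKM. The lowest in both were Angpt2, at 1.04 ± 0.255 and 0.902 ± 0.294 FPKM, and Vegfc, at 1.44 ± 0.492 and 1.51 ± 0.469 FPKM. The mean FPKM was lower in EDL than in SOL for 33 of the 35 genes, and the TMM-scaled log2 difference for 28.

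Between the control muscles 6 of the 35 genes were called lower in EDL and 0 higher, where 21.9% of all genes tested were called, 11.1% lower and 10.8% higher. The median of the 35 genes was -0.27, against 0.01 for all genes tested, and -0.17 without Cre- SOL replicate 1 of 8.5 days. Angpt1 was at 1.49, 2.31, 4.71 and 2.82 FPKM in Cre- EDL and 6.21, 11.3, 5.64 and 10.8 FPKM in Cre- SOL (replicates 1 and 2 of 2.5 days, then of 8.5 days). All SOL libraries were above all EDL libraries, and Angpt1 was lower in EDL by 1.56 on the log2 scale (SE 0.24, edgeR adjusted p = 0.000352). In the Cre- muscles of 5.5 days, which this fit did not use, Angpt1 was at 2.17 and 2.27 FPKM in EDL and 6.92 and 5.16 FPKM in SOL. It was the 1 gene of the 35 called there (log2 difference -1.33, SE 0.31, edgeR adjusted p = 0.00462), where 19.8% of all genes tested were called, 10.2% lower and 9.60% higher, and the call was lost without Cre- SOL replicate 1 (edgeR adjusted p = 0.0526).

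Rgcc, a cell cycle regulator found in endothelium, was at 23.8, 29.5, 23.8 and 23.6 FPKM in Cre- EDL and 46.2, 48.2, 42.3 and 36.9 FPKM in Cre- SOL, again with no overlap. Its log2 difference was -0.69 (SE 0.12, edgeR adjusted p = 0.000643). Sox18 was at 5.23, 6.87, 3.95 and 6.38 FPKM in EDL and 9.59, 15.0, 9.36 and 6.45 FPKM in SOL, and the highest EDL library was above the lowest SOL library. Emcn was at 8.0, 13.2, 10.2 and 11.1 against 13.1, 22.6, 16.1 and 15.9 FPKM, and Aplnr at 5.11, 8.24, 4.33 and 2.52 against 8.29, 12.3, 7.86 and 4.92 FPKM. The ranges of Emcn and Aplnr overlapped, and the log2 differences of Sox18, Aplnr, Emcn and Icam2 were -0.72, -0.67, -0.57 and -0.51. Angpt1 and Rgcc kept their calls without any 1 of the 8 libraries. The count of 6 fell to 2 without Cre- EDL replicate 1 of 2.5 days, Cre- SOL replicate 2 of 2.5 days or Cre- SOL replicate 1 of 8.5 days, and to 3 without Cre- EDL replicate 1 of 8.5 days.

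Markers of other cell types also differed between the control muscles. Of the 6 lymphatic endothelial markers 3 were called lower in EDL (Prox1 at -2.72, Ccl21a at -2.60 and Mmrn1 at -2.21), with a median of -1.41, and 1 of 11 pericyte and smooth muscle genes, Cspg4, was lower at -1.07. Of the 9 fibroblast markers 3 were called higher in EDL (Col1a1 at 1.08, Col1a2 at 1.06 and Dcn at 0.79), with a median of 0.14, as were 3 of the 5 red cell markers, with a median of 0.92, and 1 of the 11 leukocyte markers. Their part in the difference of the 35 genes was not tested.

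**Figure D4:**
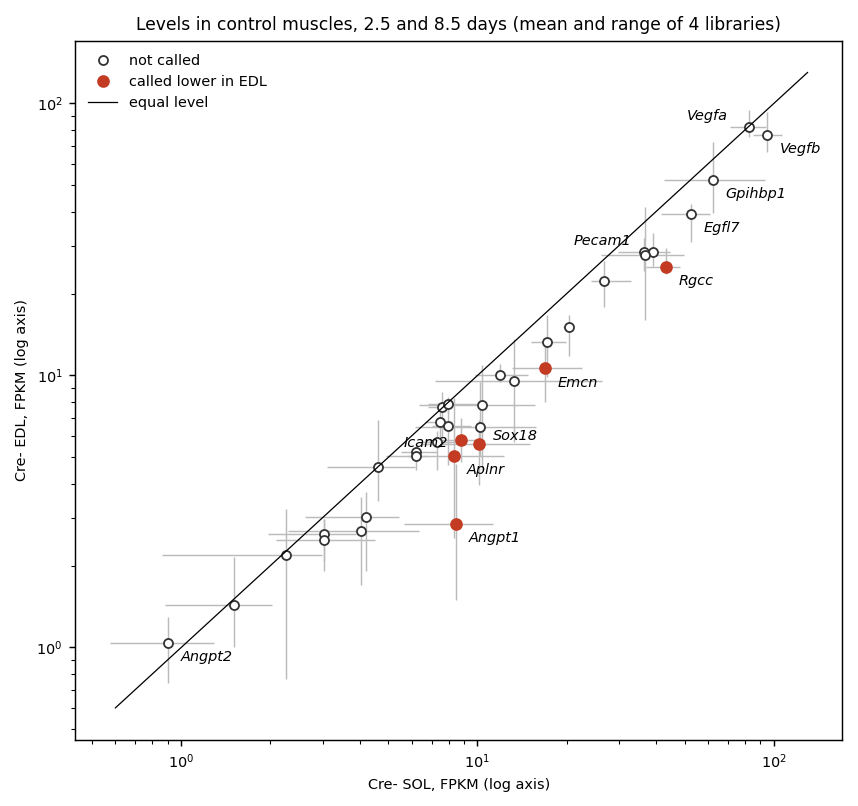
Mean FPKM of the 35 genes in Cre- EDL (y axis, log scale) against Cre- SOL (x axis, log scale) over the 4 libraries of 2.5 and 8.5 days of each muscle, with the range as bars and the line of equal level. Most points lie below the line, and Angpt1 lies farthest from it.

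The controls also differed between days. From 2.5 to 8.5 days 2 of the 35 genes were called lower in Cre- EDL and 0 higher, where 0.748% of all genes tested were called, 0.384% lower and 0.364% higher. In Cre- SOL 3 were called lower and 1 higher, where 3.63% of all genes tested were called, 0.852% lower and 2.78% higher. These genes are named because they are few, after their values were seen. Ramp2 was at 33.3 and 41.6 FPKM after 2.5 days and 16.1 and 20.3 FPKM after 8.5 days in Cre- EDL, and at 45.1 and 49.7 against 26.3 and 26.1 FPKM in Cre- SOL. It was lower after 8.5 days in both muscles, by -1.09 (SE 0.17, edgeR adjusted p = 0.0125) and -0.89 (SE 0.17, edgeR adjusted p = 0.015). Sox17 was at 3.40 and 3.58 against 1.70 and 2.05 FPKM in Cre- EDL and at 4.54 and 6.33 against 3.02 and 2.30 FPKM in Cre- SOL, with log2 differences of -0.95 and -1.05. In Cre- SOL, Gpihbp1 was at 68.0 and 93.7 against 42.7 and 44.4 FPKM (log2 difference -0.92) and Cldn5, a tight junction protein, at 8.11 and 7.17 against 26.4 and 11.5 FPKM (log2 difference 1.29).

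These calls rested on few libraries. In Cre- EDL 1 gene (Ramp2) stayed called without replicate 1 of 2.5 days or replicate 2 of 8.5 days, and 0 without either other library. In Cre- SOL the count was 2 without replicate 1 of 2.5 days, 0 without replicate 2 of 2.5 days, and 1 without either library of 8.5 days, with Sox17 called without replicate 1 and Cldn5 without replicate 2. The 11 leukocyte markers summed to 36.5 to 39.5 FPKM in Cre- EDL of 2.5 days and 50.5 to 70.9 FPKM of 8.5 days, and to 36.99 to 39.95 and 49.5 to 72.3 FPKM in Cre- SOL. The 9 fibroblast markers summed to 1951 to 2531 FPKM in Cre- EDL of 2.5 days and 2066 to 2402 FPKM of 8.5 days, and to 987 to 1260 and 1974 to 2452 FPKM in Cre- SOL, where their median log2 difference was 0.72 and 1 of 9 was called higher. The 5 red cell markers summed to 832 to 1677 and 508 to 550 FPKM in Cre- EDL, with a median of -1.36 and 0 called by edgeR (4 with an unadjusted p under 0.05), and to 437 to 440 and 444 to 473 FPKM in Cre- SOL. The part of these cells in the differences between days was not tested. Day and the day's mice cannot be told apart.

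**Figure D5:**
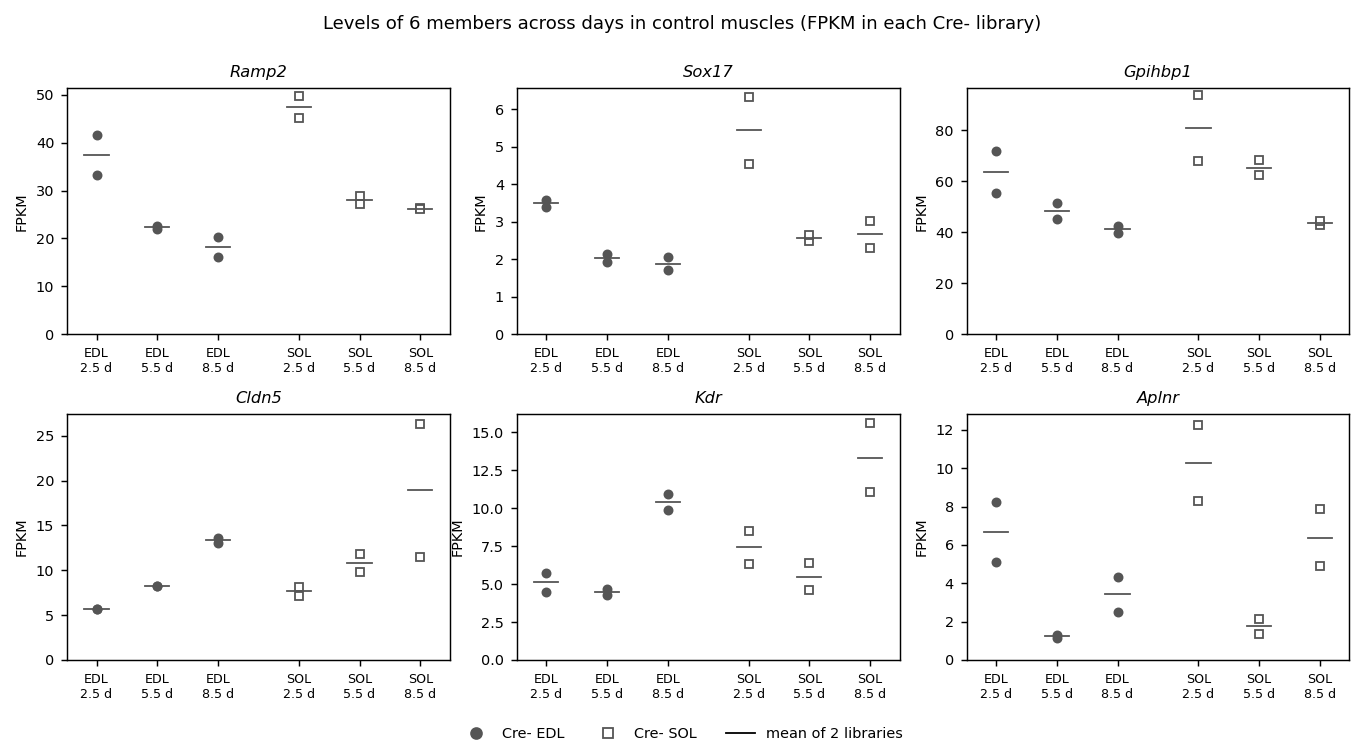
FPKM (y axis, linear, from 0) of 6 of the 35 genes in each Cre- library by muscle and days of Dox (x axis), with a line at the mean of 2 libraries. Ramp2 and Sox17 are highest after 2.5 days in both muscles, the means of Cldn5 and Kdr are highest after 8.5 days, and Aplnr is lowest after 5.5 days.

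Of 41 other genes of the angiogenic pathway, 5 were called higher and 12 lower in EDL after 2.5 days, with a median of -0.36. Of all genes tested 13.8% were called higher and 10.2% lower there. Angptl4, an inhibitor of lipoprotein lipase, was higher by 2.85 (SE 0.64, edgeR adjusted p = 0.00576), Vhl, which marks hypoxia-inducible factors for degradation, by 2.22 (SE 0.24, edgeR adjusted p = 5.4e-05), and Vegfd by 1.14. Dll4, the Notch ligand of tip and arterial cells, fell by 1.19, Cxcr4 by 1.07, and Ppargc1a, a coactivator that drives Vegfa in muscle, by 0.98. After 8.5 days 3 were higher (Vegfd at 1.44, Vhl at 1.41 and Epas1, which encodes HIF-2 alpha, at 0.62) and 3 lower (Ppargc1a at -1.07, Nrp1, a VEGF co-receptor, at -0.68 and Esrra at -0.53). Of all genes tested 7.63% were called higher and 6.50% lower there, shares close to those of the 41 genes. In SOL 0 of the 41 were called by edgeR on either day, with an unadjusted p under 0.05 for 7 after 2.5 days and 1 after 8.5 days. Of the 15372 genes tested, 2053 and 1015 had an unadjusted p under 0.05 on these days. Vhl also differed between muscles after 2.5 days, by 2.07 (SE 0.33, edgeR adjusted p = 0.00607). In the control muscles 10 of the 41 were lower in EDL, led by Angptl4 at -2.39, Vegfd at -2.05 and Vash1 at -1.18, where 11.1% of all genes tested were called lower.

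Among 27 tested endothelial genes outside the 35, 15 were lower in Cre+ EDL after 2.5 days and 0 higher, with a median of -0.63 and with Bmx at -1.60, Mcam at -1.09 and Ushbp1 at -0.88, and 1 (Mcam at -0.69) was lower after 8.5 days. Of all genes tested 10.2% were called lower in EDL after 2.5 days and 6.50% after 8.5 days. Of 11 pericyte and smooth muscle genes, 5 were lower after 2.5 days (Cnn1 at -1.89, Tagln at -0.85 and Notch3 at -0.66 the lowest) and 1 (Cspg4 at 1.21) was higher. Of 5 genes common to all myofibers, 3 were lower after 2.5 days (Acta1 at -1.16, Ckm at -1.02 and Ttn at -0.91). Of 8 fast fiber genes, 4 were lower after 2.5 days, led by Pvalb at -1.71, Tnni2 at -1.23 and Tnnt3 at -0.94, 8 lay below 0, and the median was -0.89, while 0 of 7 slow fiber genes were called by edgeR (0 with an unadjusted p under 0.05). After 8.5 days 2 fast fiber genes were lower (Tnni2 at -0.89 and Tnnt3 at -0.86), 2 common genes were lower (Acta1 at -0.94 and Ckm at -0.81) and 1 was higher (Des at 0.94). Cspg4 was the 1 pericyte and smooth muscle gene called in EDL after 8.5 days, higher by 2.14, and 0 leukocyte, fibroblast or red cell markers were called there by edgeR (0 with an unadjusted p under 0.05). In SOL 1 of the 11 pericyte and smooth muscle genes was called higher after 2.5 days and 1 after 8.5 days. On both days 0 of the 27 endothelial genes outside the 35 were called in SOL, with medians of -0.12 and 0.00. Markers of leukocytes, fibroblasts and red cells (11, 9 and 5 genes) had 0 called by edgeR in EDL after 2.5 days, with an unadjusted p under 0.05 for 1, 1 and 0, and medians of -0.06, -0.22 and -0.50. Of 6 lymphatic endothelial markers, 1 was called higher in Cre+ EDL after 2.5 days, 4 lay below 0, and the median was -0.28. After 8.5 days 0 were called in EDL, 1 lay below 0, and the median was 0.06. In SOL 0 of the 6 were called on either day, with medians of 0.63 after 2.5 days and 0.01 after 8.5 days. The red cell markers summed to 832 to 1677 FPKM in Cre- EDL and 663 to 1526 FPKM in Cre+ EDL of 2.5 days, and the leukocyte markers to 36.5 to 39.5 and 34.7 to 48.0 FPKM. Summed over the 35 genes the level was 529 to 579 FPKM in Cre- EDL and 403 to 425 FPKM in Cre+ EDL after 2.5 days, and 524 to 526 against 446 to 459 FPKM after 8.5 days. Vegfa and Vegfb, the highest of the 35 genes in Cre- EDL, are part of these sums. The 28 endothelial genes outside the 35 summed to 1071 to 1112 FPKM in Cre- EDL and 963 to 986 FPKM in Cre+ EDL after 2.5 days. After 8.5 days they summed to 927 to 952 against 940 to 941 FPKM, where the groups overlapped. The part of cell composition in these differences was not tested.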

How the data were processed

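Poly(A) RNA of 24 whole-muscle samples was sequenced. Per the labels and the study's methods, the authors checked reads with FastQC 0.11.2, aligned them to mm10 with STAR 2.5.3a, and used HOMER to count reads unique to RefSeq exons. The deposited values are raw counts per gene. Libraries are described as stranded, but the strand setting of the counting is not given in the sources used here: Cdh5, Eng, Nos3 and Angpt2 overlap a gene on the other strand, and Egfl7 holds 2 microRNA genes, so a part of their counts may belong to those genes.

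FPKM were computed here from the counts, the exon length in the table and the library total. Counts were tested with edgeR 4.0.16 (R 4.3.3): filterByExpr with a minimum count of 10, TMM, glmQLFit and glmQLFTest, Benjamini-Hochberg adjustment over all genes tested. One fit held the 16 libraries of 2.5 and 8.5 days (8 groups, 15372 genes, common biological coefficient of variation 0.174), and 5.5 days was tested in a fit of all 24 libraries (15478 genes). SE is the standard error of the log2 fold change implied by the edgeR test, the size of the change divided by the square root of its F statistic. The code was tested on simulated data. Alternatives were DESeq2 1.42.0, its size factors, library size alone, 2 other filters, no limit on fold change, other sets of libraries, replicate blocks and leaving out each library. P-values rest on the spread between the 2 libraries of a group, pooled over all groups of the fit. An exact permutation test of 2 against 2 could not go below 0.333. Apln, Vegfc and Angpt2 had as few as 50, 64 and 79 counts in a library, so counting error is a larger part of their spread than for the other genes.

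EDL and SOL libraries of one number deviated together in all 6 pairs (correlation of deviations from group means 0.173 to 0.445 over 15478 genes). The main fits had no block, and the number paired the muscles only in an alternative fit. The labels do not state that EDL and SOL libraries of one number come from one mouse.

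The 35 genes and all lists were chosen with earlier results of these data known. Library values are given for the 6 ligands, the 3 genes highest in Cre- muscles, and up to 5 called genes a direction in EDL, in SOL and between control muscles. Of other lists, at most 3 called genes a direction are named. Promoter sequences are RefSeq windows of GRCm38.p6, found for 16 of the 35 genes, 13 of them within 10 bases of the deposited start.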

Additional observations from a re-analysis of the deposited data

Results flagged for a closer look

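The change of Vegfa with OSKM differed between the muscles after 2.5 days of Dox, by a test of the difference itself. Cre+ over Cre- gave a log2 ratio of -1.22 for EDL muscles but -0.03 for SOL muscles, a difference of -1.19 (edgeR quasi-likelihood adjusted p = 0.0163). Both Cre+ EDL libraries were below both Cre- EDL libraries, and both Cre+ SOL libraries were above both Cre- SOL libraries in FPKM. Pou5f1 was at 17.5 and 70.5 FPKM in the Cre+ EDL and at 5.02 and 9.62 FPKM in the Cre+ SOL libraries, and the part of the dose of OSKM in the difference was not tested.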

How the results depend on the processing

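The counts of called genes among the 35 are given here where they moved by more than 1.5 times. In EDL after 2.5 days 18 became 7 with library size alone (1 higher, 6 lower) and 8 to 17 without 1 library. In SOL after 2.5 days 0 became 1 without a filter on low counts, 3 with DESeq2 and 1 with all 24 libraries. In EDL after 5.5 days 0 became 1 with DESeq2. The difference between muscles went from 1 gene to 2 after 2.5 days with DESeq2, to 2 with the replicate block that pairs the muscles, and to 0 to 2 without 1 library, and after 8.5 days from 0 to 2 with DESeq2. Between control muscles the count was 2 to 8 without 1 library, and after 5.5 days it was 2 with library size alone and 0 to 1 without 1 library. From 2.5 to 8.5 days in Cre- EDL the count of 2 became 1 with library size alone, 4 without a filter, 6 with DESeq2, 0 with 4 libraries only and 0 to 1 without 1 library. In Cre- SOL the count of 4 became 2 with 4 libraries only and 0 to 2 without 1 library. Apart from fits of fewer samples, the cause was not tested. The other 139 recomputed counts stayed within 1.5 times.

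In EDL after 5.5 days Apln ranged from -0.71 to 1.10 and Angpt2 from -0.39 to 0.48 without 1 library, the low ends without Cre+ replicate 1 and the high ends without Cre+ replicate 2, and Angpt2 was at -0.01 without Cre- replicate 2. Medians of the 35 genes moved with library size alone in EDL, to -0.29 after 2.5 days and -0.08 after 8.5 days, and in SOL after 2.5 days from -0.21 to -0.06. Without 1 library the SOL medians ranged from -0.32 to -0.06 after 2.5 days and from -0.02 to 0.22 after 8.5 days.

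Cre+ and Cre- libraries of one number did not deviate together (correlations of -0.169 to 0.0578 in 6 pairs). The replicate block on that number moved no count of called genes by more than 1.5 times, with 18 called in EDL after 2.5 days (1 higher, 17 lower).

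The calls that held under each setting tried and without any 1 library of their comparison were those of Vegfa, Vegfb, Gpihbp1, Sox17, Tie1 and Nos3 in EDL after 2.5 days, Vegfb in EDL after 8.5 days, and Angpt1 and Rgcc between the control muscles of 2.5 and 8.5 days. A fit without 1 library assumes that the lone library of that group varies like those of the other groups.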
